A study of Homo sapiens with 6 samples.

Results

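SR splicing factors are RNA-binding proteins that carry RNA recognition motifs at the amino end and a tail rich in arginine and serine, the RS domain. Described here are 10 of their genes, SRSF1 to SRSF7, SRSF9, SRSF10 and SRSF11, chosen by gene name, of 38843 genes in the deposited table. All 10 were among the 21965 genes that passed the filter on low counts. Libraries had been made with an mRNA-seq kit from total RNA of PC-3, an established human cell line from a metastasis of a prostate cancer, in 2 groups of 3. Control cells were compared with cells given 5 µM cepharanthine hydrochloride, a salt of an alkaloid from Stephania plants. Both groups were labelled wild type, were grown in DMEM with fetal bovine serum and were collected on day 3, and the labels do not tell whether the 3 libraries were separate cultures. The p-values may therefore measure technical spread.

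SR proteins bind short enhancer sequences in exons and recruit the spliceosome, the machine that removes introns, to nearby splice sites. The RS domain is phosphorylated by SRPK kinases in the cytoplasm and by CLK kinases in the nucleus, and the import receptor transportin 3 carries the phosphorylated proteins into the nucleus, where they gather in nuclear speckles. Many SR genes limit their own output: an excess of the protein favours transcripts with a poison exon or a retained intron, which nonsense-mediated decay then destroys. In tumours several members are known as promoters of growth, SRSF1 and SRSF3 among them. Gene-level counts add productive and decay-prone transcripts together, so they do not show how any of these genes was spliced.

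Promoters are shown because 4 members fell together, as described after them. Each line gives the 250 bases before a RefSeq start in GRCh38.p14, read 5′ to 3′, for 3 members that fell, SRSF10, SRSF7 and SRSF1, and for SRSF3, the nearest relative of SRSF7, which did not pass the test. Capitals mark matches to the motifs named after the lines.
SRSF10 chr1:23980328-23980577 (minus strand): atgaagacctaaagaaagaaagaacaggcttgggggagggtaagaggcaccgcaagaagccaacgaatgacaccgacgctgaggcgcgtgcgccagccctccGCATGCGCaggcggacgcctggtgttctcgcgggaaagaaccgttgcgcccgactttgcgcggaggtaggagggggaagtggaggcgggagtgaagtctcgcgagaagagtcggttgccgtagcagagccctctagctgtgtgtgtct
SRSF7 chr2:38751362-38751611 (minus strand): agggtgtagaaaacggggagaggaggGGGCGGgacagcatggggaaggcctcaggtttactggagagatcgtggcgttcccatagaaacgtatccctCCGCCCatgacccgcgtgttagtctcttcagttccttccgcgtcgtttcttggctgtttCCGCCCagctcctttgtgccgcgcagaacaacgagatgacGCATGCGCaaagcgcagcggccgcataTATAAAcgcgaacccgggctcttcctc
SRSF1 chr17:58007247-58007496 (minus strand): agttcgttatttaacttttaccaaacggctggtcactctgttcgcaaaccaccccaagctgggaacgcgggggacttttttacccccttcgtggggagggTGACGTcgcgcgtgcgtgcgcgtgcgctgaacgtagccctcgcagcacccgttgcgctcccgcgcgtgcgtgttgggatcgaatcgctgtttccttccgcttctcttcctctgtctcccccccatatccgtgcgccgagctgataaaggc
SRSF3 chr6:36594112-36594361 (plus strand): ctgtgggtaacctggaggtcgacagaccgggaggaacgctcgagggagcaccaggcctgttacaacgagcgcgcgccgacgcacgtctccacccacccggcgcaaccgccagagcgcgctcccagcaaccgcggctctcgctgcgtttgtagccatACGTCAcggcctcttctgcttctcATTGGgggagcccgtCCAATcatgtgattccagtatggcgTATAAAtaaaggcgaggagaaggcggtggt
RefSeq promoters matched 9 of the 10 members, with 11 starts between them, and SRSF2 was not among these. SRSF7 and SRSF11 each had a pair of starts, and the SRSF7 line is the downstream start, which lies 133 bases inside the end of the deposited gene. Of 9 motifs searched on both strands, the NRF1 core GCATGCGC was in the SRSF10 promoter and in that of the downstream SRSF7 start, which makes 2 of 11 member promoters against 2.63% of the 35116 promoters in the table. The TATA box TATAAA was in 3 (SRSF3, SRSF7 and SRSF11; 10.7% of all promoters), and the cAMP response element core TGACGT in 3 (SRSF1, SRSF3 and SRSF5; 7.102%), in SRSF5 sharing 1 base with the ETS match. Relative to the start, TATAAA began at -30 in SRSF3, -27 in the downstream SRSF7 promoter and -206 in SRSF11. The SRSF11 match was on the opposite strand, before a start 15698 bases from the deposited gene boundary. The GC box GGGCGG was in 4 (SRSF4, SRSF6 and both starts of SRSF7; 42.6%), the ETS site CCGGAAGT in 2 (SRSF4 and SRSF5; 3.42%) and the CCAAT box CCAAT in 1 (SRSF3; 32.01%). The E-box CACGTG (6.34%), the E2F site TTTCGCGC (0.439%) and the ATF4-CHOP element TGATGNAA (3.14%) had 0 matches. These counts only describe letters in the windows, and a window of the printed length without a match says nothing of the factor. Among the motifs, no single one was common to the 3 printed members that fell.

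Libraries held 52774506 to 68241156 counts, and the 10 members together took 0.288% to 0.338% of them, with 4050 to 93476 reads for a member in a library. Mitochondrially encoded genes took 8.75% to 12.2% of counts in control and 4.86% to 6.61% in treated libraries, and TMM scaling, which sets libraries to a common level from the bulk of genes, was used for every CPM (counts scaled to a common library total) below. The cells carried the epithelial transcripts KRT8, KRT18, KRT19 and EPCAM, with KRT18 at 182 ± 13.7 and 180.1 ± 10.4 CPM (SD, n = 3 per group). Of 10 tested genes of PC-3 and prostate epithelial identity 4 passed the test (40%, against 27.9% of all genes tested). Among them 2 rose, KRT8 (log2 fold change 0.25 ± 0.07) and VIM (0.75 ± 0.09), and 2 fell, EPCAM (-0.37 ± 0.07) and CD44 (-0.26 ± 0.08). The summed level of these 10 genes was 1955 to 1989 CPM in control and 2286 to 2527 CPM in treated libraries, without overlap. Its part in the results was not tested. The summed level of 11 markers of blood, vessel and stromal cells was 175 to 201 CPM in control and 90.7 to 95.8 CPM in treated libraries. Of the 8 markers that were tested, 3 passed (37.5%, against 27.9% of all genes), all lower in treated libraries (against 13.2% of all genes). These 3, COL1A1, COL3A1 and PECAM1, made up most of the sum. The defining blood marker PTPRC was at 0.218 to 0.416 and 0.241 to 0.389 CPM, and the vessel marker CDH5 was at 0 in 5 of 6 libraries. Whether that fall in the summed level bears on the values below was not tested. In bulk libraries, fewer cells of a type and less RNA per cell cannot be told apart.

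Treated cells held less transcript of 4 SR genes, SRSF10, SRSF2, SRSF7 and SRSF1, and the other 6 did not pass the test. The falls were moderate, between 17.9% and 27.0% of the control CPM. Against all genes, 4 of 10 members called compares with 27.9% of the 21965 genes tested, and the 4 lower calls compare with 13.2% of genes called lower (edgeR, quasi-likelihood F-test; a call is an adjusted p under 0.05). The edgeR test called 0 members higher, against 14.7% of genes, while DESeq2 called 1 (SRSF4), and before adjustment the edgeR p was under 0.05 for 1 higher and 5 lower members. Treated over control, the 10 members had a median log2 fold change of -0.12, and all genes tested had one of -0.02. In 6 members the values of the groups did not overlap, 5 lower and 1 higher, which 43.4% of tested genes also showed. The direction of the 4 falls was the same in every alternative run, but none of them was called after rescaling to TPM or without a filter on FPKM (limma).

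**Figure D1:**
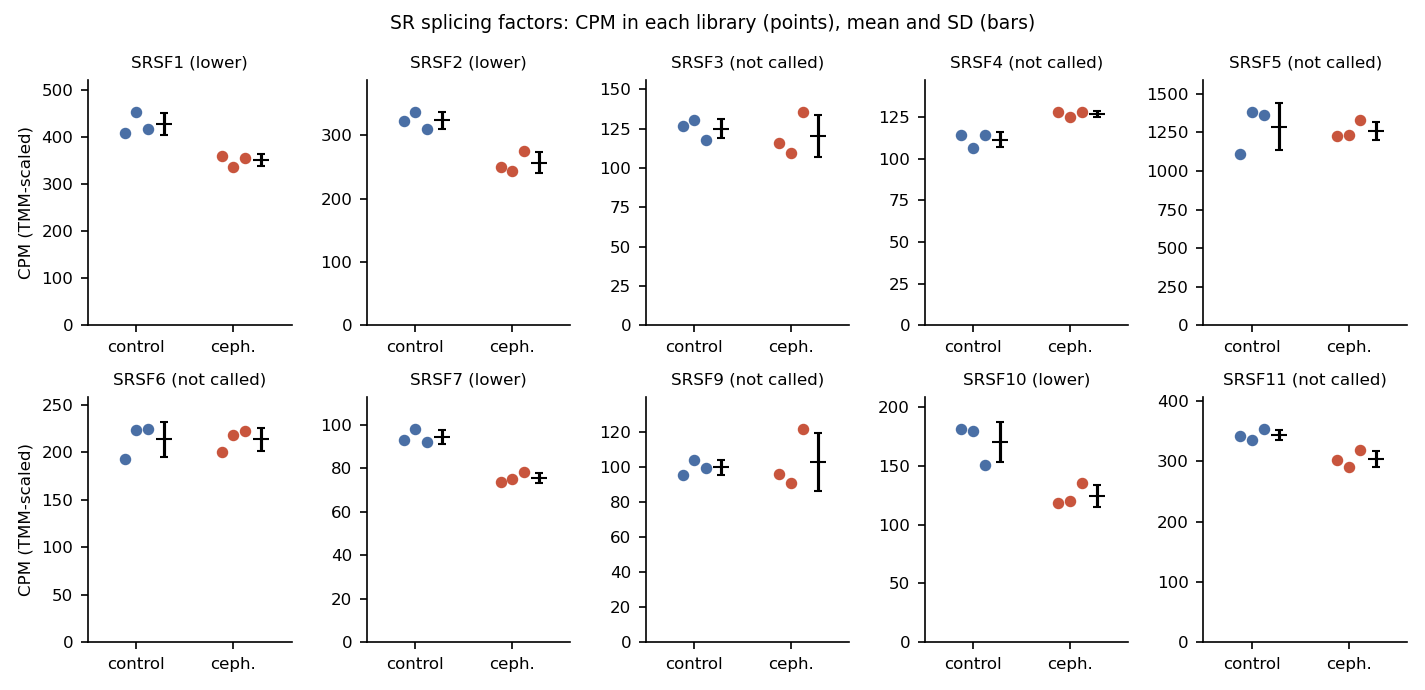
TMM-scaled CPM of each of the 10 SR splicing factors (vertical axes, from 0) in 3 control and 3 cepharanthine libraries (points), with the mean and SD beside them. In SRSF1, SRSF2, SRSF7 and SRSF10 all treated points lie below all control points, by 17.9% (SRSF1) to 27.0% (SRSF10) on average, while SRSF5 and SRSF6 overlap.

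SRSF10 had the largest fall. It is an unusual member that acts as a general repressor of splicing when it loses its phosphates, as it does in mitosis and after heat shock. Its CPM was 181, 179 and 151 in control and 118, 119.9 and 135 in treated libraries. The groups did not overlap, although control replicate 3 was the lowest control and cepharanthine replicate 3 the highest treated library, close to each other. The mean went from 170.2 ± 17.1 to 124 ± 9.28 CPM, a log2 fold change of -0.45 ± 0.09 (SE; edgeR adjusted p = 0.00515; 95% interval -0.66 to -0.25). SRSF10 (ENSG00000188529) lies on chromosome 1 from 23964347 to 23980331, on the minus strand of GRCh38, as do all positions given here.

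SRSF2 is concentrated in nuclear speckles, is a classical marker of them, and is mutated in some myeloid neoplasms. Its CPM was 323, 337 and 311 in control and 250.5, 244 and 275 in treated libraries, without overlap. The mean went from 323 ± 13.1 to 257 ± 16.3 CPM (log2 fold change -0.33 ± 0.07, edgeR adjusted p = 0.00808). SRSF2 (ENSG00000161547) lies on chromosome 17 from 76734115 to 76737333, on the minus strand. The opposite-strand gene MFSD11 shares 1106 exon bases with it in GENCODE 29 and held 7.88% of its count. The use of strand in counting is not given in the sources used here, so reads from that stretch cannot be assigned with certainty.

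SRSF7 binds RNA also through a zinc knuckle and, with SRSF3, serves as an adaptor for messenger RNA export. Its CPM was 92.8, 97.9 and 91.8 in control and 73.6, 75.2 and 78.1 in treated libraries. All treated libraries were lower than all controls, and both groups were tight. The mean went from 94.2 ± 3.27 to 75.6 ± 2.28 CPM (log2 fold change -0.32 ± 0.07, edgeR adjusted p = 0.00714). SRSF7 (ENSG00000115875) lies on chromosome 2 from 38743599 to 38751494, on the minus strand, and no other gene of the table overlaps it.

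SRSF1, a founding member of the family, is an essential splicing factor that shuttles between nucleus and cytoplasm and acts as an oncoprotein when in excess. Its CPM was 409.9, 454 and 419 in control and 359.6, 336 and 357 in treated libraries, and control replicate 2 was the highest. The mean went from 428 ± 23.3 to 351 ± 12.9 CPM (log2 fold change -0.29 ± 0.07, edgeR adjusted p = 0.0145). The call ended without cepharanthine replicate 2 (log2 fold change -0.25, edgeR adjusted p = 0.0711). SRSF1 (ENSG00000136450) lies on chromosome 17 from 58000919 to 58007261, on the minus strand. A gene of the same strand listed as AC015813 (ENSG00000266086) overlaps it, shares 1890 exon bases with it in GENCODE 29 and held 25.4% of its count, so the split of reads between them is uncertain. That gene had a log2 fold change of -0.32 and was not called (edgeR adjusted p = 0.120).

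SRSF4 and SRSF11 had groups that did not overlap but missed the adjusted threshold. SRSF4, a large member with a long RS domain, was at 114, 106 and 114 CPM in control and 128, 125 and 128 CPM in treated libraries, each treated value above each control value. Its log2 fold change was 0.19 ± 0.07 (edgeR adjusted p = 0.0659; 95% interval 0.04 to 0.34, not adjusted for the number of genes), and DESeq2 called it higher (adjusted p = 0.0473). SRSF11, a more distant member that binds U2AF, the factor of the polypyrimidine tract, was at 342, 336 and 353 CPM in control and 301, 291 and 318 CPM in treated libraries, each treated value below each control value. Its log2 fold change was -0.18 ± 0.07 (edgeR adjusted p = 0.0823; 95% interval -0.33 to -0.03). The groups of SRSF11 overlapped in FPKM. SRSF4 (ENSG00000116350) lies on chromosome 1 from 29147743 to 29181900 and SRSF11 (ENSG00000116754) on chromosome 1 from 70205682 to 70252001, on the minus and plus strands.

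For SRSF3, SRSF5, SRSF6 and SRSF9 the groups overlapped, and the intervals below hold only for the edgeR fit with TMM scaling. After rescaling to TPM their log2 fold changes were 0.175, 0.216, 0.240 and 0.268 in that order (limma). These values lay above the interval for SRSF3, SRSF5 and SRSF6 and inside it for SRSF9. SRSF5, the most abundant member, was at 1112 to 1383 CPM in control and 1226 to 1328 CPM in treated libraries, with control replicate 1 the lowest of all 6 (log2 fold change -0.03 ± 0.09; 95% interval -0.23 to 0.18). SRSF6, its relative and a regulator of skin and tumour splicing programmes, was at 193 to 224 and 200.2 to 223 CPM (95% interval -0.19 to 0.19). SRSF3, the smallest member, was at 118 to 130.2 and 109.5 to 136 CPM (95% interval -0.26 to 0.15). SRSF9, a short-tailed relative of SRSF1, was at 95.7 to 104 and 90.7 to 122 CPM, with cepharanthine replicate 3 far above the rest (95% interval -0.20 to 0.28). These 4 had edgeR adjusted p between 0.698 and 0.996. SRSF9 shares 1729 exon bases with GATC on the opposite strand, whose count was 68.2% of its own, so its level is uncertain. SRSF5 (ENSG00000100650) lies on chromosome 14 from 69726900 to 69772005, SRSF6 (ENSG00000124193) on chromosome 20 from 43457893 to 43464243 and SRSF3 (ENSG00000112081) on chromosome 6 from 36594353 to 36605600, all on the plus strand. SRSF9 (ENSG00000111786) lies on chromosome 12 from 120461672 to 120469748, on the minus strand.

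**Figure D2:**
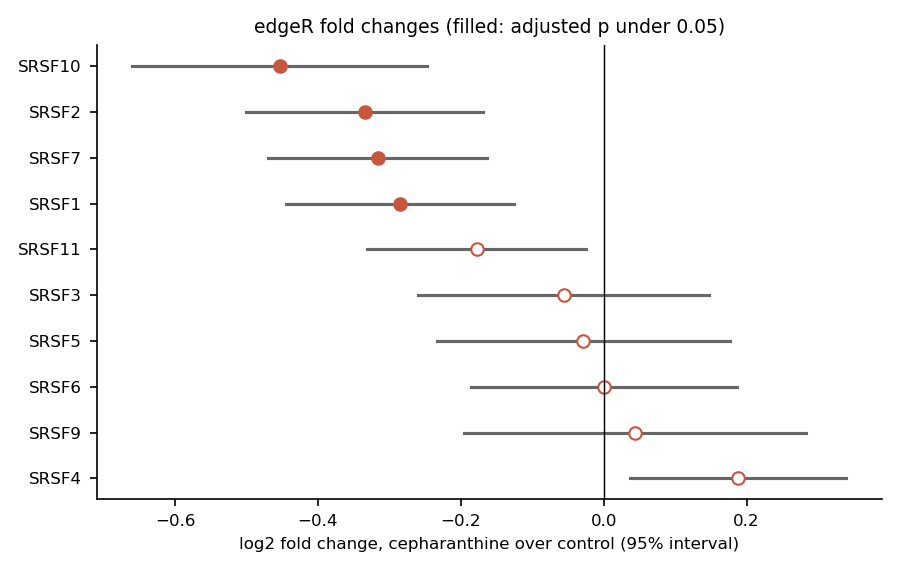
Log2 fold change of each SR splicing factor, cepharanthine over control (horizontal axis), with its 95% interval from the edgeR fit (lines). Filled points passed an adjusted p under 0.05: SRSF10 at -0.45, SRSF2 at -0.33, SRSF7 at -0.32 and SRSF1 at -0.29, and the 6 open points did not.

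Levels between genes were compared per gene length, with the deposited FPKM (fragments scaled by gene length and library total). The family spanned a 19.0-fold range in control cells. SRSF5 stood at 206 ± 28.2 FPKM and was followed by SRSF2 at 93.04 ± 7.51 and SRSF1 at 63.3 ± 5.97 FPKM. SRSF6 at 37.4 ± 3.86 and SRSF11 at 34.6 ± 0.717 FPKM came next and overlapped each other, and below them were SRSF9 at 23.1 ± 1.796, SRSF7 at 19.9 ± 1.51 and SRSF3 at 15.03 ± 1.32 FPKM, with ranges that did not overlap. SRSF10 at 12.3 ± 1.59 and SRSF4 at 10.8 ± 0.116 FPKM were lowest and overlapped in control cells. In treated cells the order of the first 8 by mean was the same, and SRSF4 (12.02 to 13.4 FPKM) stood above SRSF10 (8.55 to 10.48 FPKM) without overlap. In treated cells the ranges of SRSF7 and SRSF3 overlapped, as did those of SRSF11 and SRSF9.

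The gene models of this family hold many non-productive transcripts, and the lengths behind FPKM differ widely. GENCODE 29 lists at least 1 transcript of the nonsense-mediated decay class for each of the 10 members, with 6 for SRSF7 and 3 for SRSF1, and up to 8 retained-intron transcripts, in SRSF5. The lengths implied by counts and FPKM, if total counts were the divisor, ran from 3393 bases for SRSF2 to 13533 bases for SRSF10. A long model lowers FPKM for the same reads. Implied lengths exceeded the exon bases of GENCODE 29 in every member, most for SRSF1 (6592 against 3340) and SRSF10 (13533 against 10277). The excess was smaller elsewhere, as for SRSF2 (3393 against 3017) and SRSF7 (4615 against 4045). Implied lengths also varied between libraries, for SRSF1 from 6467 to 6935 bases, so total counts were not the divisor if lengths were fixed. Because of this the excess cannot be read as gene length alone. The order and range by FPKM therefore depend on lengths that could not be checked. SRSF10 ranked low in FPKM, while its CPM in control cells was above that of SRSF4, SRSF3, SRSF9 and SRSF7.

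**Figure D3:**
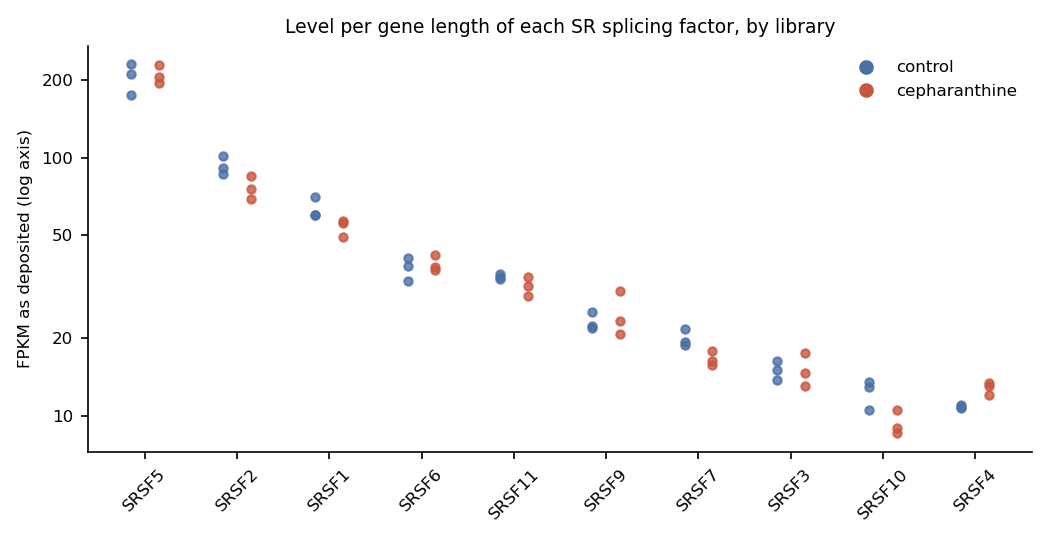
Deposited FPKM of each SR splicing factor (vertical log axis) in every control and cepharanthine library (points), in order of the control mean. SRSF5 is highest at 175 to 231 FPKM in control cells, and SRSF4 and SRSF10 are lowest, overlapping in control but not in treated libraries.

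As description with no test, the shares of SRSF4, SRSF5, SRSF6 and SRSF9 in the summed FPKM were larger, and those of SRSF1, SRSF2, SRSF7 and SRSF10 smaller, in each treated than in each control library, and those of SRSF3 and SRSF11 overlapped. Shares add up to a fixed total, so a larger share shows no rise of the gene. SRSF5 held 39.8% ± 2.52 of the summed FPKM of the members in control and 42.8% ± 0.349 in treated libraries (SD, n = 3). SRSF2 held 18.1% ± 1.14 and 15.7% ± 0.225, and SRSF1 12.3% ± 0.398 and 11.04% ± 0.505. The summed CPM of the 4 members that fell was 1007, 1068 and 972 in control and 802, 775 and 845 in treated libraries, which did not overlap, as the choice of these members fixes. For the other 6 the sum was 1983 to 2283 and 2066 to 2254 CPM, and the ranges overlapped. The summed FPKM of all 10 was 515 ± 46.8 in control and 489 ± 43.8 in treated libraries (exact permutation test, two-sided, p = 0.6; 3 against 3 cannot go below 0.1). The summed CPM, 3196 ± 186 and 2936 ± 142, also did not differ beyond the spread by that test (exact permutation p = 0.2).

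Close relatives were compared by the log2 ratio of their CPM within each library, which does not depend on scaling between libraries. SRSF3 to SRSF7 was 0.41 ± 0.05 in control and 0.66 ± 0.13 in treated libraries (SD, n = 3; exact permutation p = 0.1), and the groups did not overlap. SRSF1 to SRSF9 was 2.10 ± 0.03 and 1.78 ± 0.20 (exact permutation p = 0.1), also without overlap, and the difference of -0.32 became -0.20 without cepharanthine replicate 3. SRSF4 to SRSF5 (difference 0.21), SRSF4 to SRSF6 (0.19) and SRSF5 to SRSF6 (-0.02) overlapped, with exact permutation p of 0.3, 0.3 and 0.6. Single libraries moved them: leaving out control replicate 1 gave 0.33 for SRSF4 to SRSF5, leaving out control replicate 2 gave 0.12 for SRSF4 to SRSF5 and 0.12 for SRSF4 to SRSF6, and SRSF5 to SRSF6 turned to 0.01 when cepharanthine replicate 2 was left out. Adjusted over the 5 pairs the lowest p was 0.25, so no pair passed, and with 3 against 3 none could.

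The highest and lowest values of members gathered in certain libraries. Among the treated libraries, cepharanthine replicate 3 had the highest CPM in 8 of 10 members, and cepharanthine replicate 2 had the lowest in 6. Among controls, replicate 2 was the highest in 6. Cepharanthine replicate 3 and control replicate 2 were the deepest of their groups, with 68241156 and 59241954 counts, and had the lowest mitochondrial shares, 4.86% and 8.75%. Whether depth or that share bears on the members' levels was not tested. Without mitochondrially encoded genes the same 4 members were called, with log2 fold changes of -0.29 to -0.45.

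Scaling moved the fold changes of all members by about the same amount. In limma fits of FPKM, the share of called genes that were higher was 62.8%, and 83.4% once FPKM were rescaled to TPM (each library set to the same sum), against 52.6% in the edgeR test. The 13451 genes of these fits, those with a mean FPKM of at least 1, had medians of 0.07 and 0.26, while edgeR tested 21965 genes. Without that filter the median on FPKM was 0.00098 over 37257 genes, so gene set and scaling both differ between the fits. After rescaling, SRSF10, SRSF2, SRSF7 and SRSF1 stood at -0.21, -0.10, -0.08 and -0.05 and none was called lower. Relative to the median of all genes in that fit they stood at -0.47, -0.36, -0.34 and -0.31, and on FPKM as deposited at -0.44, -0.35, -0.32 and -0.30. On FPKM as deposited SRSF10 and SRSF7 were called lower (limma adjusted p = 0.0365 and 0.0499), SRSF2 and SRSF1 missed the threshold (limma adjusted p = 0.0616 and 0.0978), and SRSF4 was called higher (limma adjusted p = 0.0415).

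**Figure D4:**
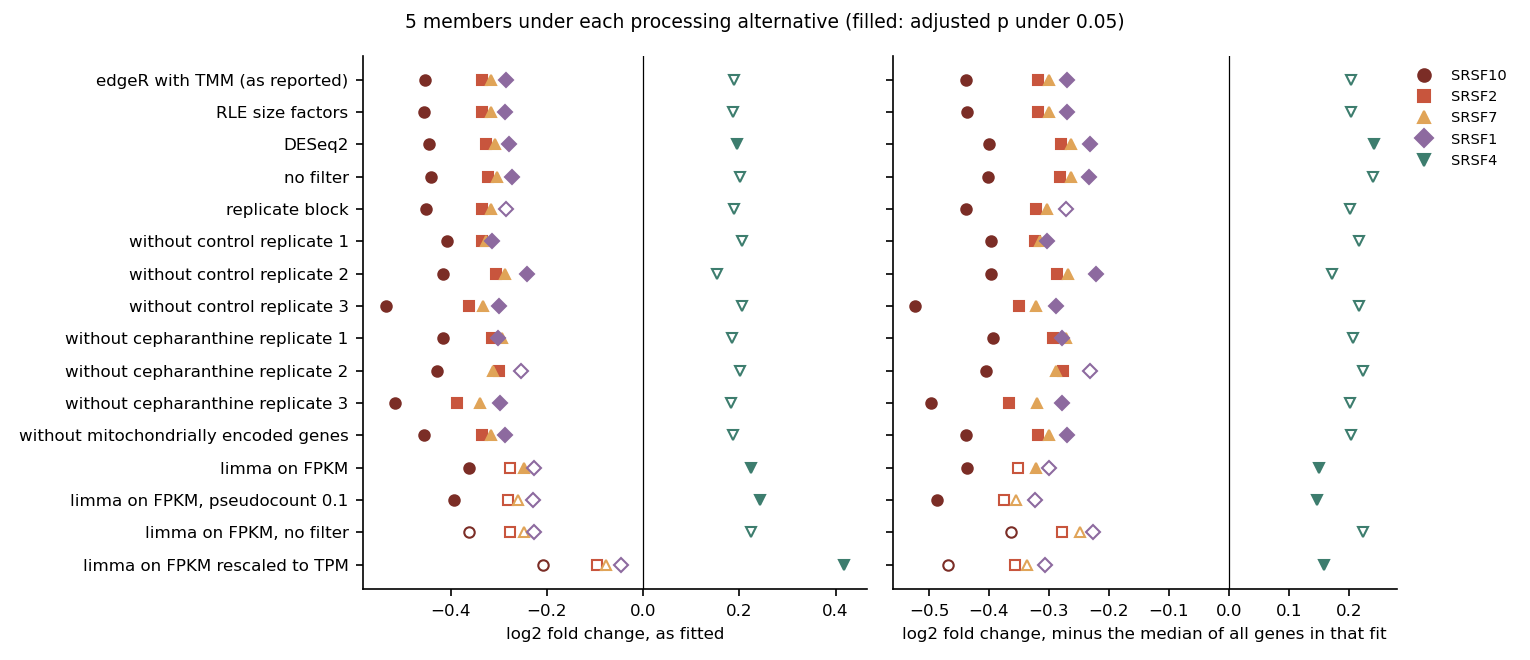
Log2 fold change of SRSF10, SRSF2, SRSF7, SRSF1 and SRSF4 (horizontal axes) in the edgeR test and each of 15 alternatives (rows), as fitted on the left and minus the median of all genes of that fit on the right. Filled symbols passed an adjusted p under 0.05. The 4 members that fell stay below 0 throughout, from -0.05 (SRSF1 after rescaling to TPM) to -0.53 (SRSF10 without control replicate 3), and SRSF4 stays above 0.

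Of 15 genes that phosphorylate, import or dephosphorylate SR proteins 7 rose and 2 fell, 60.0% against the 27.9% of all genes. Their median log2 fold change was 0.19. After rescaling to TPM 9 were higher and 0 lower (limma), where 4931 of all 13451 genes tested were higher and 983 lower. The PP1 catalytic subunits PPP1CB and PPP1CA, which remove phosphates from SR proteins, rose, PPP1CB from 116 ± 6.05 to 183 ± 22.98 CPM (log2 fold change 0.65 ± 0.10, edgeR adjusted p = 8.5e-04) and PPP1CA from 66.4 ± 2.48 to 95.1 ± 6.32 CPM (0.52 ± 0.08, edgeR adjusted p = 8.6e-04). Another PP1 catalytic subunit, PPP1CC, named after its values were seen, was not called (0.12 ± 0.07, edgeR adjusted p = 0.285). TNPO3, the import receptor of SR proteins, rose by 0.30 ± 0.07 and PPP1R8, a nuclear inhibitor of PP1, by 0.38 ± 0.09. PPP1CA shares 228 exon bases with RAD9A on the opposite strand, whose count was 71.9% of its own. The kinases, looked at after their values were seen, were split. CLK1, a nuclear SR kinase, was at 173, 212 and 174 CPM in control and 231, 228 and 252 CPM in treated libraries and rose (0.35 ± 0.09, edgeR adjusted p = 0.0194). Its relative CLK2 was at 95.7, 78.9 and 98.5 and 74.99, 66.8 and 54.6 CPM and fell (-0.48 ± 0.12, edgeR adjusted p = 0.0169), with groups close to each other. The cytoplasmic kinase SRPK2 rose by 0.32 ± 0.08, and SRPK1 was not called (0.08 ± 0.09, edgeR adjusted p = 0.535). DYRK1B rose (0.58 ± 0.15, edgeR adjusted p = 0.0151) and PRPF4B fell (-0.26 ± 0.07, edgeR adjusted p = 0.0173). The kinases SRPK3, CLK3, CLK4 and DYRK1A were not called. Without control replicate 3 the 9 calls of this list became 5, all higher.

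SR-related proteins carry RS-rich stretches without being classical members. Of 30 tested, of 32 listed, 11 fell and 3 rose (46.7% called, against 27.9% of all genes), and the median was -0.14. That balance turned with the scaling: after rescaling to TPM 3 were lower and 7 higher (limma, against 983 and 4931 of 13451 genes). RBM25, which acts with the spliceosome at alternative exons, fell from 2807 ± 129.8 to 1749.6 ± 48.3 CPM (-0.68 ± 0.07, edgeR adjusted p = 9.0e-05). SFSWAP, a splicing regulator that controls its own transcript, fell by 0.75 (SE 0.09), and PNN (pinin), an exon junction and speckle protein, by 0.60 (SE 0.07) on the log2 scale. CCNL1, a cyclin of nuclear speckles, rose from 297 ± 4.41 to 477 ± 29.1 CPM (0.68 ± 0.07). TRA2B, the splicing activator closest to the family, also fell (-0.25 ± 0.08, edgeR adjusted p = 0.0399), while TRA2A was not called (0.18 ± 0.09). Of family members outside the 10, SRSF8, a copy related to SRSF2, was at 18.5 ± 1.498 and 15.95 ± 2.39 CPM and not called (edgeR adjusted p = 0.288), and SRSF12, with 3 to 22 reads a library, was not tested. TRA2B, TRA2A, SRSF8 and SRSF12 were named after their values were seen. Without control replicate 3 the 14 calls of this list became 8, 6 lower and 2 higher.

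The hnRNP proteins, RNA-binding proteins that often oppose SR proteins at the same exons, had 7 higher and 2 lower of 27. This was 33.3% called, near the 27.9% of all genes, and the median was 0.11. On the TPM scale 14 were higher and 0 lower (limma, against 4931 and 983 of 13451 genes). HNRNPC, a packaging protein of nascent transcripts, rose from 233 ± 5.15 to 339 ± 20.2 CPM (0.54 ± 0.07, edgeR adjusted p = 4.6e-04). HNRNPA1, the best known antagonist of SRSF1, fell from 748 ± 53.9 to 532 ± 4.04 CPM (-0.49 ± 0.07, edgeR adjusted p = 9.3e-04). RALY, a relative of HNRNPC, and HNRNPF, which binds runs of G, rose by 0.43 ± 0.08 and 0.38 ± 0.07. The table lists 41 pseudogene copies of HNRNPA1 and 7 of HNRNPC by name, so reads may have been divided or lost between copies. RALY overlaps EIF2S2 on the opposite strand, with 0 shared exon bases.

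Proteins of the snRNPs and the core spliceosome had 14 higher and 5 lower of 53 (35.8% called, against 27.9% of all genes), with a median of 0.07. Rescaling to TPM gave 22 higher and 0 lower (limma, against 4931 and 983 of 13451 genes). SLU7, a factor of the second splicing step, rose by 0.50 ± 0.07 (edgeR adjusted p = 7.3e-04). SF3B3, a subunit that helps recognise the branch point, and SNRNP70, which SRSF1 contacts at the start of an intron, fell (-0.38 ± 0.07 and -0.37 ± 0.07; edgeR adjusted p = 0.00203 and 0.00338). ISY1 had the largest rise of the list (1.38 ± 0.13), and shares 912 exon bases with the readthrough gene ISY1-RAB43 on its strand, so its reads could be split. The 19 calls became 11 without control replicate 3 and 12 without cepharanthine replicate 2.

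Other regulators of alternative splicing had 2 higher and 5 lower of 25 tested, of 28 listed (28% called, against 27.9% of all genes, so not a result about this list), with a median of -0.05. This balance also turned with the scaling, to 6 higher and 0 lower on TPM (limma, against 4931 and 983 of 13451 genes). TIAL1 and TIA1, which bind U-rich stretches beside weak splice sites, fell by 0.54 (SE 0.07) and 0.37 (SE 0.09). MBNL1, a regulator of developmental splicing, and RBM6, a tumour-linked splicing regulator that overlaps RBM5 on its strand, fell as well (-0.33 ± 0.07 and -0.43 ± 0.07). The 7 calls became 4 without control replicate 3, all lower, and 3 without cepharanthine replicate 2, all lower.

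Nonsense-mediated decay and exon junction genes had 7 higher and 2 lower of 18 (50% called, against 27.9% of all genes), with a median of 0.13. TPM values gave 9 higher and 1 lower (limma, against 4931 and 983 of 13451 genes). The exon junction core subunit EIF4A3 rose (0.52 ± 0.13, edgeR adjusted p = 0.0127), as did its partner CASC3 (0.34 ± 0.09). DHX34, a helicase of the decay pathway, fell (-0.70 ± 0.12, edgeR adjusted p = 0.00251). The 9 calls became 3 when control replicate 1 was left out, 4 for control replicate 3 and 5 for cepharanthine replicate 2 or 3. Of 4 nuclear-retained RNAs 1 was called higher (KCNQ1OT1) and 0 lower, with log2 fold changes of -0.86 to 0.28. That is 25% called, against 27.9% of all genes, and so not a result about these RNAs. Among them MALAT1, which resides in nuclear speckles with the SR proteins, was at 1075 to 1204 CPM in control and 1048 to 1419 CPM in treated libraries and was not called (edgeR adjusted p = 0.693).

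**Figure D5:**
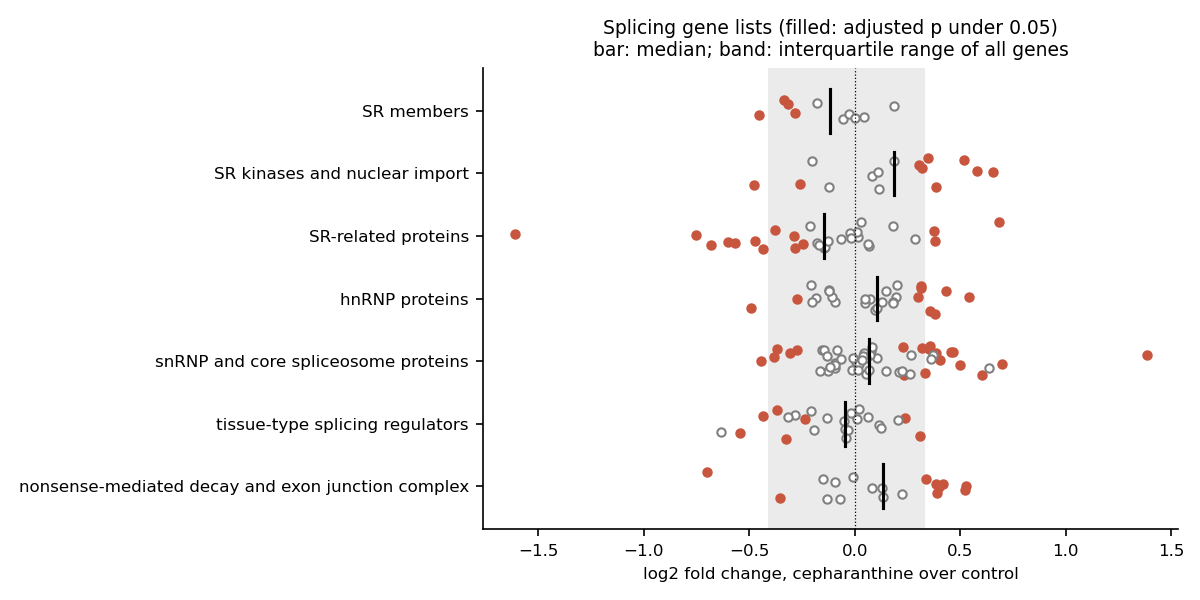
Log2 fold change of each tested gene (points, horizontal axis) in the SR members and 6 lists of splicing-related genes (rows), filled where the adjusted p was under 0.05, with the list median as a bar and the interquartile range of all genes tested as a band. The medians run from -0.14 (SR-related proteins) to 0.19 (SR kinases and nuclear import) and all lie inside the band. Among called SR-related genes and other regulators the balance of lower and higher turns after rescaling to TPM, where 83.4% of all called genes were higher.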

How the data were processed

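The members and the lists were chosen with earlier results of these data known, so no count stands as an independent test of them. The deposited table held raw read counts and FPKM for 38843 genes in each of 6 libraries, per the file headers. The choice of aligner, counter, strand setting, annotation and gene lengths is not given in the sources used here. GRCm38, mm10 and hg38 are listed, without roles, per the submitters' processing notes. Of the gene identifiers, 96.8% were in GENCODE 29 (GRCh38), and 99.9% of these overlapped the same gene. The control columns bear another name than the control samples' titles and were matched by treatment and number.

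Counts were filtered with filterByExpr, scaled by TMM and tested across 21965 genes with the quasi-likelihood test of edgeR 4.0.16 (R 4.3.3), with Benjamini-Hochberg adjustment over all genes and a threshold of 0.05. CPM are TMM-scaled, and counting error is small at these depths. Alternatives were RLE factors, no filter, DESeq2 1.42.0, a block on the column number, each library left out, removal of mitochondrially encoded genes, and limma 3.58.1 on log2(FPKM + 1) where the mean FPKM reached 1, also with a pseudocount of 0.1, no filter, or rescaling to TPM. Single values were compared with exact permutation tests (SciPy 1.17.1). The edgeR and limma tests were also run on simulated counts with known changes, all larger than those of the members. Limma was there given CPM and not FPKM or TPM. That run therefore does not bear on calls of the size seen here. Named genes were the 10 members and up to 4 called genes per list, taken by lowest adjusted p. Exceptions are stated where they appear, and a few items are not reported here.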

Additional observations from a re-analysis of the deposited data

How the results depend on the processing

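The 4 falls kept their direction in all 15 alternatives. The members called were 4 in the edgeR test, 3 to 4 without a library, 4 with RLE factors, no filter or mitochondrially encoded genes removed, 5 with DESeq2 (SRSF4 added) and 3 with limma on FPKM. They were 2 with a pseudocount of 0.1, 0 without a filter on FPKM (limma; 1 higher and 3 lower at an unadjusted p under 0.05) and 1 after rescaling to TPM (SRSF4, higher). Without that filter 37257 genes were tested in place of 13451. The column numbers did not pair the libraries (correlations of deviations 0.05, -0.05 and -0.15), and with the replicate block 3 members were called, SRSF1 missing the threshold (edgeR adjusted p = 0.0560), and 4 of the other splicing regulators. Signs turned only for members never called. SRSF3 was 0.175 on TPM and -0.150 to 0.00764 without a library. SRSF5 was 0.0327 on FPKM, with or without the filter, 0.0329 with a pseudocount of 0.1, 0.216 on TPM and -0.123 to 0.0263 without a library. SRSF6 was -0.000274 without mitochondrially encoded genes and -0.0683 to 0.0486 without a library, SRSF9 -0.0941 to 0.127 without a library, and SRSF11 0.0598 on TPM. The summed FPKM of the members changed by -4.99%, by 7.58% on TPM, and by -9.57% to -0.0585% without a library. Calls in the lists ranged, without a library, over 5 to 9 (kinases and import), 8 to 13 (SR-related), 11 to 19 (spliceosome), 3 to 7 (other regulators) and 3 to 8 (decay). Without a filter on FPKM they were 5, 6, 11, 3 and 4. On TPM 14 hnRNP genes were called, all higher, where 4931 of 13451 genes were higher and 983 lower. The cause of these shifts in calls was not tested. Gene-level counts set the limit: isoforms and retained introns of the members cannot be told apart at any depth.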
